A study of Homo sapiens with 12 samples.

Results

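A list of 35 genes of ribosome biogenesis and the nucleolus was followed through RNA-seq of HT1080, a cell line from a human fibrosarcoma that carries mutant NRAS. Members were taken by gene symbol, from a list drawn up with earlier results of these data known. Of the 35, 34 were in the deposited table and all 34 passed the filter on low values, among 14722 genes tested and 56227 table entries; BOP1 was not analysed here. The study asked how knockdown of mutant NRAS alters the interferon-alpha response, with and without poly(dA:dT), a synthetic DNA duplex used to set off cytosolic DNA sensing. Each of 4 groups had 3 libraries. They were siQ61K, an siRNA against NRAS Q61K, with poly(dA:dT); siQ61K with DMSO; siNC, a control siRNA, with poly(dA:dT); and siNC with DMSO. Every library thus came from siRNA-treated cells, and a single siRNA against NRAS was used. No label says whether DMSO also stood in for the carrier that brings poly(dA:dT) into cells. Table columns carry short names that were matched to the sample titles by reading SI as siQ61K and PD as poly(dA:dT), which is an inference from names.

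Ribosomes are built in the nucleolus. RNA polymerase I transcribes the rRNA precursor there, small nucleolar RNPs (snoRNPs) guide its methylation, pseudouridylation and cleavage, and separate sets of assembly factors shape the 40S and 60S subunits before export. The transcription factor MYC activates many of these genes, and the ERK kinases, which act downstream of RAS, phosphorylate the RNA polymerase I factors RRN3 and UBTF as well as MYC itself, which links growth signals to ribosome output.

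Several of these genes share promoter letters, and 4 stretches are shown because the results below turn on LYAR, NHP2 and WDR12, while UTP4 holds both motifs searched. Promoters were taken from RefSeq on GRCh38.p14, as the 250 bases before the annotated start, 5′ to 3′ on the gene's strand, with motif letters in capitals.
UTP4, chr16:69132399-69132648, plus strand: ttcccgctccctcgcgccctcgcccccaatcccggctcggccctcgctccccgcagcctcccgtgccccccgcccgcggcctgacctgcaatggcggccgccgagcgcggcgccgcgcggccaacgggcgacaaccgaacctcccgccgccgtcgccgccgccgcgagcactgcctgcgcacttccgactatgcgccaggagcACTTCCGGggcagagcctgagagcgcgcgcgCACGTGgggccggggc
LYAR, chr4:4290155-4290404, minus strand: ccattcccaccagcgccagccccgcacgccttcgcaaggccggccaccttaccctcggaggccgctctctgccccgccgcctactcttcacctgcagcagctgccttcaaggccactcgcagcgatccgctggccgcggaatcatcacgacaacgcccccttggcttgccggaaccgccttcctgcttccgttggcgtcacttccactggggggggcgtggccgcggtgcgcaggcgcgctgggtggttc
NHP2, chr5:178153886-178154135, minus strand: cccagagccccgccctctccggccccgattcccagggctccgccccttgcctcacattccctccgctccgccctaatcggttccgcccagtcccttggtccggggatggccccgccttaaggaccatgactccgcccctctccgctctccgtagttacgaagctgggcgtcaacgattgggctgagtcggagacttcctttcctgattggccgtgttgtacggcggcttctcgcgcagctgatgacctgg
WDR12, chr2:202911674-202911923, minus strand: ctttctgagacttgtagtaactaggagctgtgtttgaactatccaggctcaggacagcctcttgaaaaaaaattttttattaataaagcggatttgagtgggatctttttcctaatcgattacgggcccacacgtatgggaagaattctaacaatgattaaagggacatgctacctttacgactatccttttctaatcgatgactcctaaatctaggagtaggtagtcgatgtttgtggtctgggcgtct
UTP4 carries CACGTG, the E-box that MYC and MAX can bind, 16 bases before its start, and the ETS letters CCGGAAGT in the reverse orientation 47 bases before it. LYAR, NHP2 and WDR12 hold neither. The motifs searched were CACGTG and CCGGAAGT, on both strands, and neither contains the other.

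Across the 300-base windows, which add the first 50 transcribed bases, CACGTG stood in 9 of the 30 members with a window (30%), against 10.3% of all 10301 promoters. CCGGAAGT stood in 5 of 30 members (16.7%, against 9.06% of all), namely POLR1C, RRN3, DDX21, GAR1 and UTP4. The 9 E-boxes are shown with their flanks, 30 bases each, with CACGTG in capitals.
FBL, chr19:39846356-39846385, minus strand: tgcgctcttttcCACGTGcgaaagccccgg
RRP9, chr3:51941892-51941921, minus strand: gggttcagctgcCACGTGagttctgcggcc
UTP20, chr12:101280083-101280112, plus strand: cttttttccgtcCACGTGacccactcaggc
UTP4, chr16:69132621-69132650, plus strand: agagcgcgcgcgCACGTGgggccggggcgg
WDR43, chr2:28894658-28894687, plus strand: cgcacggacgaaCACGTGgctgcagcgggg
BYSL, chr6:41921515-41921544, plus strand: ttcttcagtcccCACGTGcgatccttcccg
PES1, chr22:30591880-30591909, minus strand: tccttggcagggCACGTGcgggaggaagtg
NOP2, chr12:6568242-6568271, minus strand: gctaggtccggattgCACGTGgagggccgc
MRTO4, chr1:19251807-19251836, plus strand: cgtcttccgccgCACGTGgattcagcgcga
Among these 9, MRTO4 rose and FBL fell after knockdown with DMSO, RRP9 fell after knockdown with poly(dA:dT), and the other 6 were called in neither comparison. Of the 21 members with a window and no CACGTG, 10 were called in neither. This split was not made over all genes and its counts are small, so no difference in response is read from it. NOLC1, NOP58, RRP12 and RRS1 had no window in the table used. Some members also carry snoRNA genes. In GENCODE release 29, 9 of 34 members (26.5%) had a snoRNA gene inside them on the same strand, against 1.85% of 14294 tested genes, and these were POLR1C, NCL, GNL3, NOP56, NOP58, DKC1, WDR43, TSR1 and PPAN.

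All values are TPM, a share of a library's transcripts scaled per transcript length, so levels can be set side by side between genes. TPM keeps no depth, which is unknown here. A share cannot tell fewer cells from less RNA per cell, and a change in the total RNA of a cell would not show in it. Whether the replicates were grown as separate cultures is not given in the labels. P-values therefore measure only how far these libraries spread, and that spread may be technical. Replicates correlated at 0.966 to 0.984. NRAS stood at 15.2 to 23.5 TPM in the 6 siQ61K libraries and at 41.4 to 60.6 TPM in the 6 siNC libraries. TPM per gene symbol cannot tell mutant from other NRAS transcripts, so how far the siRNA spared the latter is not shown. The mesenchymal markers VIM, FN1, SPARC and CDH2 were high and THY1 was at most 0.126 TPM, with a summed level of 6558 to 11421 TPM in siQ61K and 7087 to 8183 TPM in siNC libraries. Summed epithelial markers were at 0.797 to 3.49 TPM in siQ61K and 1.73 to 3.51 TPM in siNC libraries, nearly all CLDN4, and 4 endothelial markers summed to at most 0.913 TPM. The summed leukocyte markers were at 97.3 to 123 TPM in siQ61K and 128 to 219 TPM in siNC libraries, nearly all CD68, while PTPRC, CD3E and CD14 were each at or near 0.

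Nucleophosmin (NPM1), a histone chaperone and shuttle of the nucleolus, was the most abundant member at a mean of 2597 TPM over the 12 libraries. Nucleolin (NCL) followed at 552 TPM, fibrillarin (FBL), the methyltransferase of box C/D snoRNPs, at 345 TPM and NHP2, a core protein of box H/ACA snoRNPs, at 268 TPM. UTP20, POLR1A and POLR1C were lowest, at 7.41, 6.62 and 4.06 TPM, and 31 of 34 members were at or above 10 TPM in every library. POLR1A, the largest subunit of RNA polymerase I, varied most, with its highest library 3.98 times its lowest. DKC1, the pseudouridine synthase of box H/ACA snoRNPs, varied least, at 1.25 times. Summed over the 34 members, the level was 5275 ± 258 TPM with siQ61K and poly(dA:dT), 5107 ± 159 TPM with siQ61K and DMSO, 5491 ± 135 TPM with siNC and poly(dA:dT) and 5708 ± 63.3 TPM with siNC and DMSO (SD, n = 3 each). Without NPM1, which made up much of this sum, the sum was 2659 ± 89.5 TPM with siQ61K and poly(dA:dT), 2738 ± 105 TPM with siQ61K and DMSO, 2877 ± 58.6 TPM with siNC and poly(dA:dT) and 2922 ± 93.3 TPM with siNC and DMSO.

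**Figure D1:**
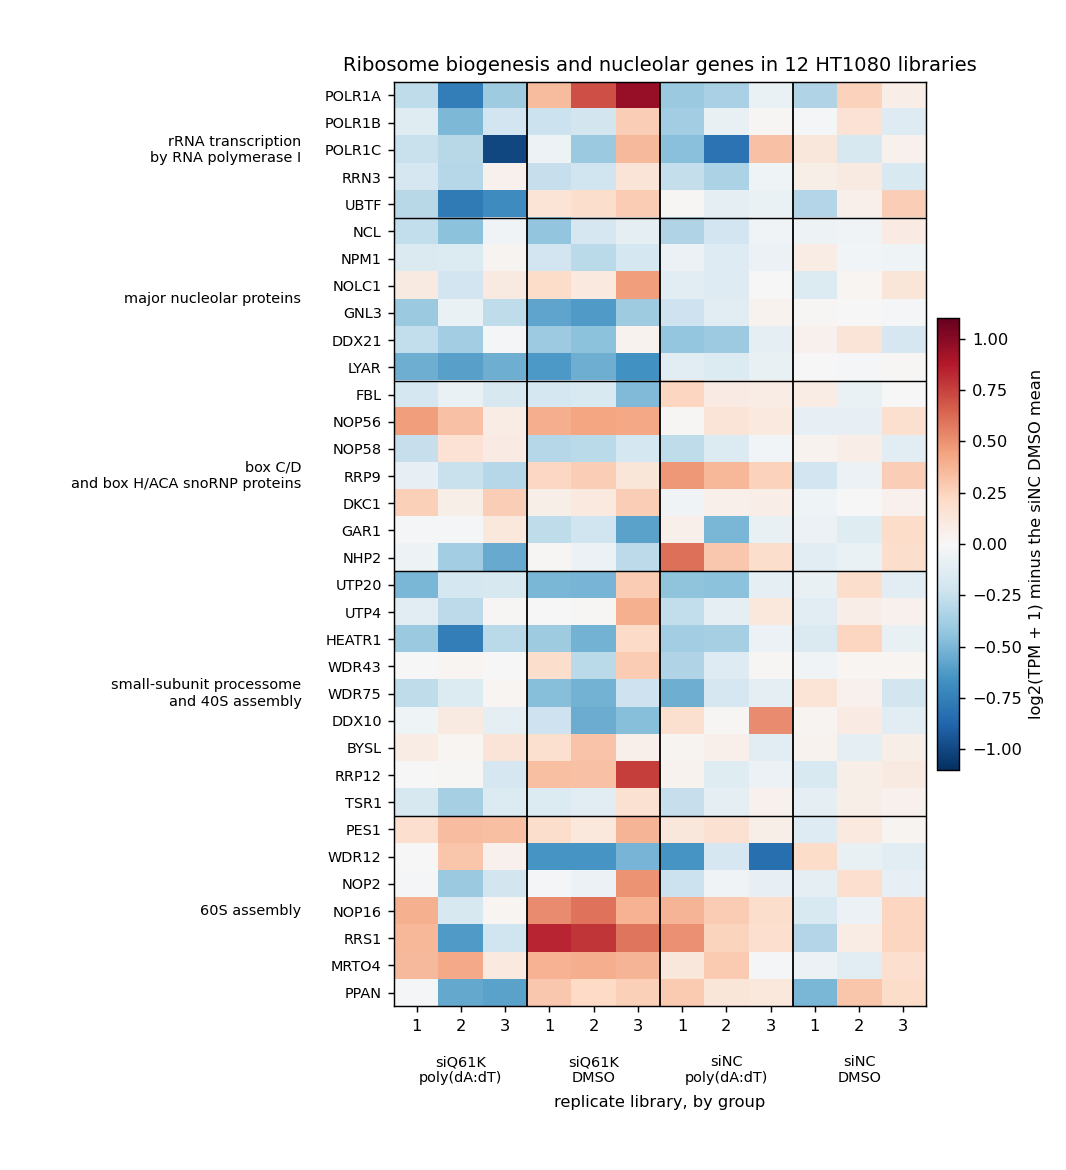
Each cell is the log2(TPM + 1) of 1 member in 1 library minus the member's mean in the 3 siNC DMSO libraries, with rows grouped by role and columns by group. POLR1A, RRP12 and RRS1 stand high in the siQ61K DMSO libraries, LYAR is low in all 6 siQ61K libraries, and most other rows stay within 0.5 of the siNC DMSO mean.

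Knockdown with DMSO, the plain effect of siQ61K, moved members in both directions. With limma across all genes and a Benjamini-Hochberg adjusted p below 0.05 as the call, 6 members rose and 7 fell, which is 38.2% of the 34, against 31.5% of all genes called (16.6% higher and 14.8% lower). The rising members were POLR1A, NOP56, RRP12, NOP16, RRS1 and MRTO4, with log2 fold changes of 0.38 to 0.74. NPM1, GNL3, LYAR, FBL, WDR75, DDX10 and WDR12 fell, by 0.23 to 0.61 on the log2 scale. The median over members was -0.04, beside 0.01 over all genes. Values of the 2 groups did not overlap for 18 of 34 members, against 45.8% of all genes.

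Among the members that act in rRNA transcription by RNA polymerase I, POLR1A alone was called. It stood at 8.26, 10.9 and 13.1 TPM with siQ61K and at 4.81, 7.68 and 6.68 TPM with siNC, so every siQ61K library was above every siNC library. On the log2 scale it rose by 0.67 (SE 0.21, adjusted p = 0.0305). UBTF, which binds rDNA and holds it open for transcription, had 42.2, 43.5 and 46.3 TPM with siQ61K and 30.1, 39.5 and 46.1 TPM with siNC, where the groups overlapped. RRN3, the initiation factor, had 28.2, 28.9 and 37.4 TPM with siQ61K, against 35.5, 36.4 and 30.005 TPM with siNC. POLR1C, a subunit shared with RNA polymerase III, moved least, at 4.45, 3.27 and 6.25 TPM with siQ61K and 5.20, 4.01 and 4.88 TPM with siNC. Neither UBTF, RRN3 nor POLR1C was called (adjusted p = 0.347, 0.595 and 0.94, in that order). Reads of RRN3 can be split with pseudogene copies, whose table entries summed to 9.45% of the RRN3 level.

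LYAR, a nucleolar zinc-finger protein tied to cell growth, was the clearest loss of the list. Its level was 64.5, 69.0 and 62.9 TPM with siQ61K, against 101, 99.5 and 102 TPM with siNC. The groups lay far apart, and the drop was 0.61 on the log2 scale (SE 0.09, adjusted p = 0.000257). GNL3 (nucleostemin), a nucleolar GTPase, had 81.2, 78.6 and 92.9 TPM with siQ61K and 123, 122 and 120.2 TPM with siNC, again without overlap (log2 fold change -0.53, SE 0.11, adjusted p = 0.00359). NPM1 had 2409, 2270 and 2430 TPM with siQ61K and 2938, 2732 and 2689 TPM with siNC. That loss was small, -0.23 on the log2 scale (SE 0.08, adjusted p = 0.0481), although NPM1 gave the largest change in TPM. NCL, NOLC1, a snoRNP chaperone, and the RNA helicase DDX21 were not called, with log2 fold changes of -0.24, 0.26 and -0.27.

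In the box C/D snoRNPs, which guide 2′-O-methylation, NOP56 and FBL moved apart although both belong to the same core particle. NOP56 had 148, 152 and 152 TPM with siQ61K and 106, 106 and 127 TPM with siNC. All siQ61K libraries were above all siNC libraries (log2 fold change 0.42, SE 0.11, adjusted p = 0.0126). FBL had 315, 321 and 257 TPM with siQ61K, against 381, 341 and 359 TPM with siNC (log2 fold change -0.28, SE 0.10, adjusted p = 0.0495). NOP58, the partner of NOP56, had 71.6, 72.5 and 77.7 TPM with siQ61K and 91.5, 94.1 and 82.4 TPM with siNC; these did not overlap, but the change of -0.27 was not called (adjusted p = 0.108). Of the box H/ACA proteins, NHP2 had 268, 253 and 217 TPM with siQ61K and 245, 252 and 303 TPM with siNC, and DKC1 and GAR1 were not called either.

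For the 40S subunit, RRP12, which in yeast helps export pre-ribosomes, had 29.99, 29.7 and 40.6 TPM with siQ61K and 21.0, 24.7 and 25.4 TPM with siNC. Each siQ61K value lay above each siNC value (log2 fold change 0.47, SE 0.14, adjusted p = 0.0221). The helicase DDX10, whose yeast counterpart Dbp4 releases a snoRNA from the pre-rRNA, had 26.7, 21.3 and 22.4 TPM with siQ61K and 32.1, 33.5 and 28.8 TPM with siNC (log2 fold change -0.41, SE 0.14, adjusted p = 0.0438). WDR75, a subunit of the processome that forms on nascent rRNA, also fell, by 0.41. TSR1, a late 40S factor, had 44.7, 45.5 and 56.0 TPM with siQ61K and 46.0, 51.9 and 51.3 TPM with siNC, so its groups overlapped (adjusted p = 0.863). The processome members UTP20, UTP4, HEATR1 and WDR43, and BYSL, which acts late on the 40S subunit, were not called, at -0.25 to 0.18.

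For the 60S subunit, RRS1, which in yeast helps load the 5S RNP, rose most of all members. It had 56.8, 54.9 and 47.7 TPM with siQ61K and 24.9, 33.2 and 37.2 TPM with siNC, without overlap (log2 fold change 0.74, SE 0.22, adjusted p = 0.0200). NOP16 and MRTO4, further 60S factors, rose by 0.50 and 0.38. WDR12, which forms the PeBoW complex with PES1 and BOP1, had 61.9, 61.7 and 68.1 TPM with siQ61K and 112, 92.0 and 89.7 TPM with siNC. The siQ61K libraries were all below the siNC libraries (log2 fold change -0.60, SE 0.16, adjusted p = 0.0108), while its partner PES1 had a log2 fold change of 0.23 and was not called. NOP2, a methyltransferase of the large rRNA, had 38.7, 37.3 and 55.2 TPM with siQ61K and 36.4, 44.5 and 36.6 TPM with siNC, which overlapped. PPAN was not called, and a read-through transcript with P2RY11 has its own table entry at 8.29% of the PPAN level.

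These fold changes moved with base composition. Across the 34 members, Spearman's rank correlation between the fold change and the GC content of the longest transcript was 0.715, and over 14521 genes it was 0.503; genes are not independent replicates. Rising members had 50.9% to 58.6% GC, and falling members 37.7% to 54.3%. In single libraries, the deviation of a gene from its mean over libraries correlated with GC content at 0.515, 0.513 and 0.29 with siQ61K and DMSO and at -0.488, -0.362 and -0.031 with siNC and DMSO. Each library was then corrected for GC content and length, which takes this relation out by design. After that the rank correlation among members was 0.0154, and 9 members were called (26.5%, against 27.6% of genes). POLR1A (0.46), NOP56 (0.32), NOP16 (0.36), RRS1 (0.51) and NOLC1 (0.25) were then higher, and LYAR (-0.38), GNL3 (-0.26), FBL (-0.43) and NHP2 (-0.34) lower. NPM1 came to -0.01, and NPM1, WDR75, DDX10, RRP12, MRTO4 and WDR12 lost their calls. Here and in the comparisons below, a response tied to GC content would be removed along with a technical trend. Which of them was present was not tested.

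Most of these calls were also lost with single libraries left out, mainly at fold changes of similar size. Over the 52 cases in which 1 of 11 members lost its call that way, the log2 fold change was 63.5% to 116% of its full value, with a median of 96.5%. Some of these cases left out a poly(dA:dT) library, which cannot change the fold change with DMSO and raises this median. The calls of LYAR and GNL3 alone held when each library was left out in turn, and they were the 2 members still called without siNC DMSO replicate 1. Without siQ61K DMSO replicate 1, 2 or 3 or siNC DMSO replicate 2, 7, 6, 8 and 6 members were called. The genes called over the whole table without each library are given below only as a range. These member counts therefore do not set members apart from other genes. The adjusted p reached 0.135 for POLR1A, 0.171 for NPM1, 0.0959 for RRP12, 0.0542 for WDR12 and 0.0929 for RRS1 without siNC DMSO replicate 1. For NOP56 it reached 0.0551 without siNC DMSO replicate 1 or 2, for DDX10 0.14 without siQ61K DMSO replicate 2, and for FBL 0.169 without siQ61K DMSO replicate 3.

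**Figure D2:**
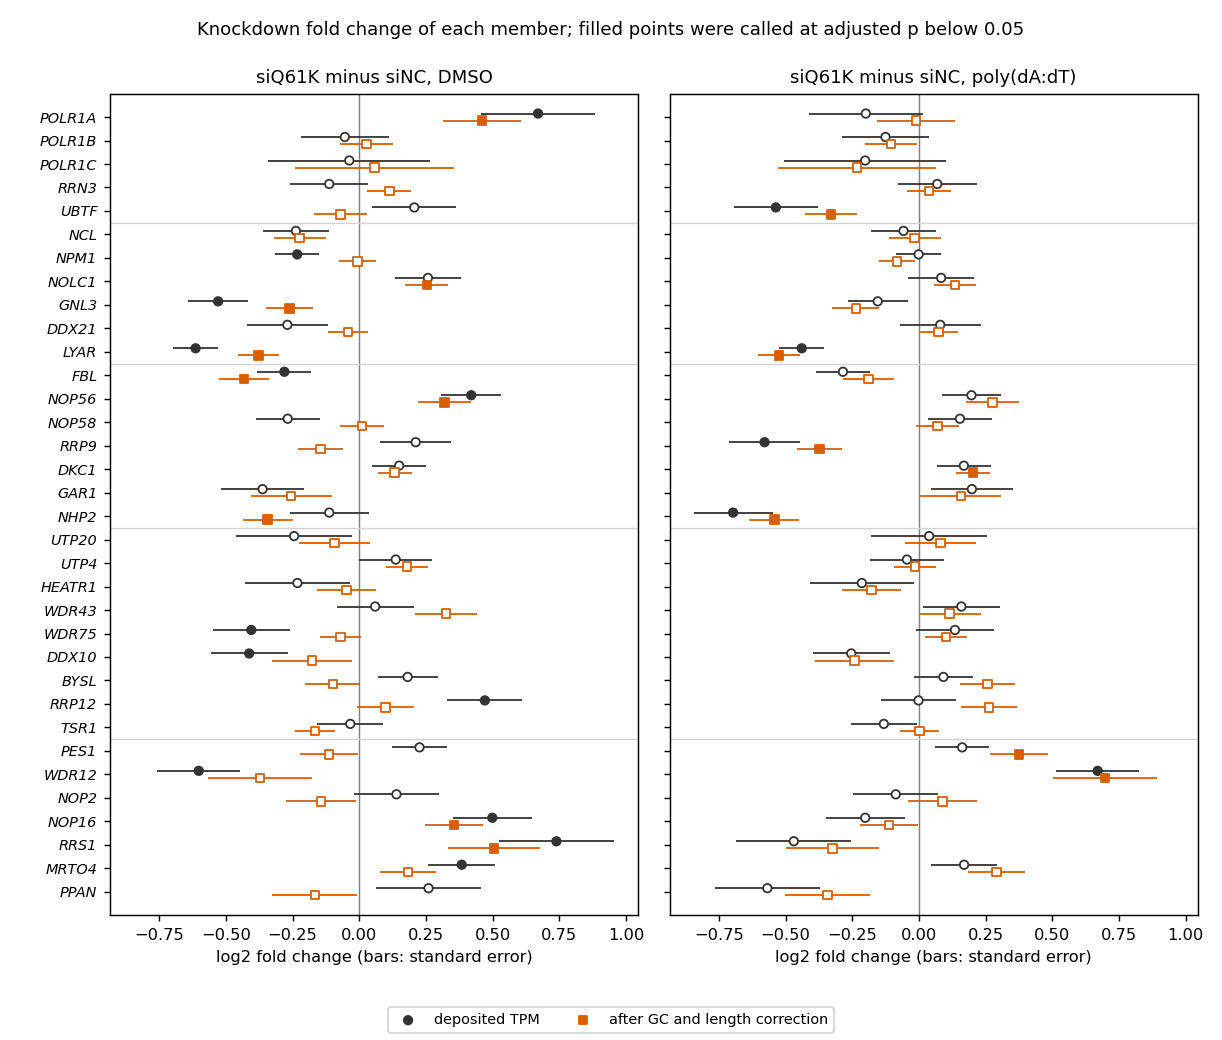
Points are the log2 fold changes of siQ61K against siNC for each member with their standard errors, from deposited TPM (circles) and after the GC and length correction (squares); filled points were called. With DMSO, 13 circles and 9 squares are filled; with poly(dA:dT), 5 circles and 7 squares are, and LYAR is filled on the low side in both panels.

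**Figure D3:**
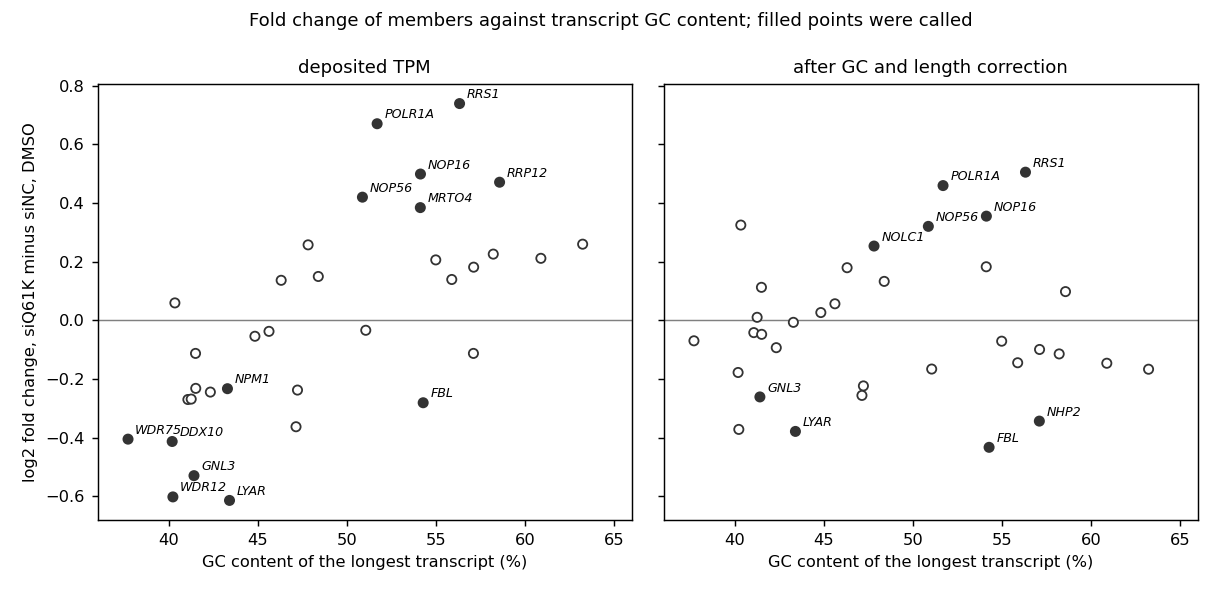
The log2 fold change of each member with DMSO is plotted against the GC content of its longest transcript, before and after the correction, with called members filled and named. The rank correlation is 0.715 in the left panel and 0.0154 in the right one, where the correction takes the GC trend out by design. POLR1A, NOP56, NOP16, RRS1, GNL3, LYAR and FBL are filled in both.

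Knockdown in cells given poly(dA:dT) moved fewer members. WDR12 rose, and UBTF, LYAR, RRP9 and NHP2 fell, 5 of 34 or 14.7%, against 21.4% of all genes called (8.71% higher and 12.6% lower). The median was -0.05, beside -0.07 over all genes. Uncalled members lay between -0.57 (PPAN) and 0.20. Values did not overlap for 8 of 34 members, against 36.7% of all genes.

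NHP2 fell most, with 256, 203 and 180.3 TPM with siQ61K and 405, 327 and 304 TPM with siNC. No value overlapped (log2 fold change -0.70, SE 0.15, adjusted p = 0.00515). RRP9, a protein of the U3 snoRNP, which is needed for pre-rRNA cleavage, had 28.3, 25.2 and 24.1 TPM with siQ61K, against 42.3, 39.1 and 36.1 TPM with siNC. Here too the groups were separate (log2 fold change -0.58, SE 0.13, adjusted p = 0.00809). LYAR had 69.1, 66.1 and 69.0 TPM with siQ61K and 92.1, 90.7 and 95.1 TPM with siNC (log2 fold change -0.44, SE 0.09, adjusted p = 0.00297). In deposited TPM, LYAR was the single member called in the same direction in both knockdown comparisons. After the GC and length correction NHP2 was called lower in both as well, at -0.34 with DMSO and -0.54 with poly(dA:dT). UBTF had 30.5, 21.8 and 23.1 TPM with siQ61K and 38.3, 35.4 and 36.05 TPM with siNC (log2 fold change -0.54, SE 0.16, adjusted p = 0.0283).

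WDR12 went the other way from its change with DMSO. With poly(dA:dT) it had 97.3, 121 and 101 TPM with siQ61K and 61.8, 85.8 and 54.5 TPM with siNC. All siQ61K libraries were above all siNC libraries (log2 fold change 0.67, SE 0.16, adjusted p = 0.00865). The members with the smallest changes of their role were NPM1, RRP12, NOP58, RRN3 and NOP2. NPM1 had 2492, 2507 and 2848 TPM with siQ61K and 2655, 2517 and 2670 TPM with siNC, and RRP12 had 23.6, 23.8 and 20.7 TPM with siQ61K and 24.3, 21.4 and 22.5 TPM with siNC. Their groups overlapped, with log2 fold changes of 0.00 at 2 decimals. NOP58 had 74.7, 99.8 and 95.2 TPM with siQ61K and 73.2, 80.2 and 87.4 TPM with siNC, and NOP2 had 38.6, 29.1 and 33.8 TPM with siQ61K and 33.0, 37.8 and 36.6 TPM with siNC.

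The other members followed closely were not called with poly(dA:dT). POLR1A had 4.996, 3.30 and 4.56 TPM with siQ61K and 4.48, 4.71 and 5.93 TPM with siNC, so the gap seen with DMSO was not there. RRS1, with 40.6, 20.0 and 26.7 TPM with siQ61K and 44.7, 37.3 and 35.7 TPM with siNC, overlapped as well (adjusted p = 0.142). NOP56 had 155, 141 and 119 TPM with siQ61K and 114, 124 and 121 TPM with siNC, where 2 of the 3 siQ61K libraries were above all siNC libraries. DDX10 had 30.3, 33.8 and 29.2 TPM with siQ61K, against 35.7, 31.7 and 45.5 TPM with siNC, and TSR1 had 43.9, 38.2 and 44.5 TPM with siQ61K, against 41.4, 46.3 and 51.5 TPM with siNC. RRN3 had 29.7, 27.0 and 35.01 TPM with siQ61K and 28.0, 26.4 and 32.6 TPM with siNC. POLR1C, at 3.79, 3.59 and 1.83 TPM with siQ61K and 3.12, 2.23 and 6.11 TPM with siNC, spread more within each group than between them.

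The calls of LYAR, RRP9, NHP2 and WDR12 with poly(dA:dT) held in every alternative setting that was run, the omission of each library among them. UBTF lost its call when any of 5 libraries was omitted, with an adjusted p of up to 0.108 without siQ61K poly(dA:dT) replicate 2. The rank correlation with GC content was -0.344 among members and -0.103 after the correction, which kept all 5 calls and added DKC1 (0.20) and PES1 (0.38) as higher. With the correction 7 of 34 members were called (20.6%, against 27.1% of genes). With median-of-ratios scaling the calls over all genes split into 1710 higher and 1623 lower, against 1282 higher and 1862 lower in deposited TPM, and the same number of members was called.

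**Figure D4:**
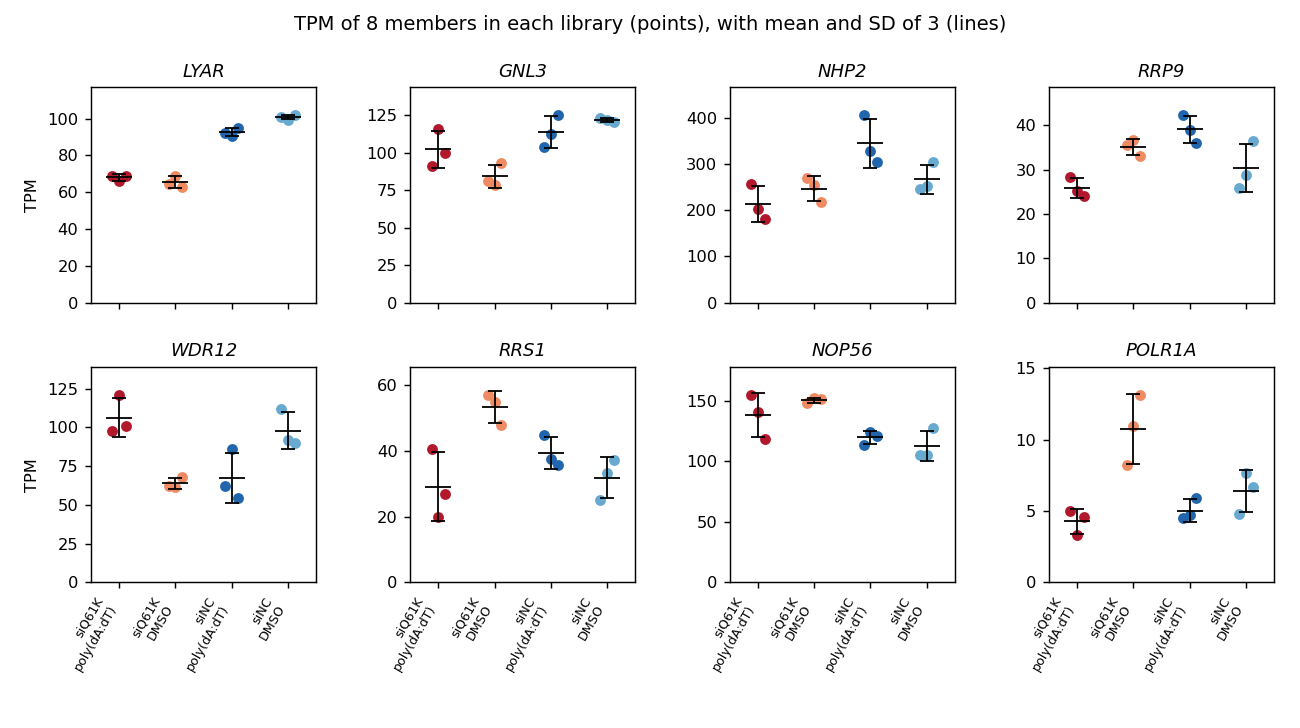
TPM of 8 members in each library (points) with the mean and SD of 3 libraries (lines), for the 4 groups from siQ61K with poly(dA:dT) to siNC with DMSO. LYAR is lower in both siQ61K groups than in both siNC groups, WDR12 is low with siQ61K and DMSO and with siNC and poly(dA:dT), and RRS1 and POLR1A peak with siQ61K and DMSO.

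In siNC cells no member passed the test for poly(dA:dT) against DMSO. Limma called 0 of 34, against 0.122% of all genes, which is 18 of 14722. At an unadjusted p below 0.05 there were 3 members, RRP9 (log2 fold change 0.36), NHP2 (0.37) and WDR12 (-0.55), or 8.82%, against 11.1% of all genes. The lowest adjusted p was 0.288, for WDR12. No member was called in any alternative setting, where the adjusted p of WDR12 went as low as 0.117, without siNC poly(dA:dT) replicate 2. The member median was -0.10, beside -0.07 over all genes, and the groups did not overlap for 4 of 34 members, against 17.9% of all genes. This comparison shares its siNC libraries with the knockdown comparisons, so the values of WDR12, NHP2 and RRP9 in it rest on libraries already described.

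In siQ61K cells, poly(dA:dT) against DMSO gave 1 higher and 6 lower members, 20.6%, against 25.2% of all genes (6.92% higher and 18.3% lower). WDR12 rose (log2 fold change 0.72, SE 0.16, adjusted p = 0.00776). POLR1A fell most, to 4.996, 3.30 and 4.56 TPM with poly(dA:dT), against 8.26, 10.9 and 13.1 TPM with DMSO, without overlap (log2 fold change -1.15, SE 0.21, adjusted p = 0.00543). RRS1 had 40.6, 20.0 and 26.7 TPM with poly(dA:dT) and 56.8, 54.9 and 47.7 TPM with DMSO (log2 fold change -0.90, SE 0.22, adjusted p = 0.0115). UBTF (-0.80), PPAN (-0.65), RRP12 (-0.53) and RRP9 (-0.43) were the other losses. The median was -0.09, beside -0.15 over all genes, and values did not overlap for 12 of 34 members, against 39.3% of all genes. The siQ61K DMSO libraries in which POLR1A, RRP12 and RRS1 stood high are shared with the knockdown comparison, so these are not separate observations.

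That response moved with several settings. The rank correlation with GC content was -0.624 among members. Once corrected, 4 members were called (11.8%, against 8.7% of genes): WDR12 (0.78) and PES1 (0.49) higher, POLR1A (-0.67) and RRS1 (-0.64) lower. RRP12 came to 0.0235 (adjusted p = 0.913), with the sign turned. Median-of-ratios scaling moved the median of all genes by 0.137 and called 6 members higher and 4 lower, GNL3, NOP58, GAR1, WDR75 and DDX10 among the higher; over all genes it gave 1870 higher and 1686 lower, against 1019 and 2693. With replicate 2 of the siQ61K poly(dA:dT) libraries and replicate 3 of the siQ61K DMSO libraries both left out, limma called 0 members (8 at an unadjusted p below 0.05, lowest adjusted p 0.0766) and 137 genes. The log2 fold changes of the 7 members were then 75.3% to 106% of their full values, for example -0.86 for POLR1A, -0.74 for RRS1 and 0.67 for WDR12. Leaving out siQ61K poly(dA:dT) replicate 2, siQ61K poly(dA:dT) replicate 3 or siQ61K DMSO replicate 3 left 4 members each. For all genes only the range is given below, so these counts do not set members apart.

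The interaction, which subtracts the poly(dA:dT) response of siNC cells from that of siQ61K cells, called 5 members, 1 higher and 4 lower (14.7%, against 18.1% of all genes, 6% higher and 12.1% lower). WDR12 was higher (1.27, SE 0.22, adjusted p = 0.00753). RRS1 (-1.21, SE 0.31, adjusted p = 0.0208), RRP9 (-0.79, SE 0.19, adjusted p = 0.0177), UBTF (-0.74, SE 0.22, adjusted p = 0.0375) and NOP16 (-0.70, SE 0.21, adjusted p = 0.0374) were lower. Here the relation to base composition was strongest, with a rank correlation of -0.796 among members and -0.654 over all genes. After the correction limma called 0 members (6 at an unadjusted p below 0.05; lowest adjusted p 0.0668, for WDR12 at 1.07), against 2.05% of genes, and the rank correlation among members was -0.112. WDR12 and RRP9 kept their calls without each library in turn. UBTF and NOP16 lost theirs without most libraries, and RRS1 without siNC DMSO replicate 1, siQ61K poly(dA:dT) replicate 3 or siNC poly(dA:dT) replicate 1, with an adjusted p of up to 0.0571.

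Across the 5 comparisons, 17 members were called in none. Between the 2 knockdown comparisons, 16 members had fold changes of opposite sign, and WDR12 was the member called in opposite directions. Of the 30 member calls in all, 11 held without each library in turn and 15 after correction for GC content and length. The 5 that held in every setting were LYAR in both knockdown comparisons and RRP9, NHP2 and WDR12 with poly(dA:dT). Of these counts, only the one after correction was also made over all genes. In knockdown with DMSO 7 of 13 member calls held after it, against 2884 of 4632 over all genes. In knockdown with poly(dA:dT) 5 of 5 held, against 2768 of 3144. For poly(dA:dT) under siQ61K 3 of 7 held, against 984 of 3712, and for the interaction 0 of 5, against 248 of 2662. The other counts describe the list and do not set it apart from other genes.

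MYC, a transcription factor that activates many of these genes, was measured here as mRNA and not as protein or activity. Its part in the changes above was not tested. Its mRNA stood at 54.7, 46.4 and 56.2 TPM with siQ61K and 27.1, 30.7 and 28.6 TPM with siNC, both with DMSO. With poly(dA:dT) it had 49.8, 40.4 and 44.6 TPM with siQ61K and 33.4, 32.9 and 31.5 TPM with siNC. All siQ61K libraries were above all siNC libraries in both, and limma called both rises, at log2 fold changes of 0.84 (SE 0.12, adjusted p = 0.000254) and 0.45 (SE 0.12, adjusted p = 0.0157); after the correction they were 0.64 and 0.57 and still called. Its partner MAX rose by 0.48 with DMSO and 0.47 with poly(dA:dT). Of the 9 MYC network genes, 3 rose and 1 fell with DMSO (44.4%, against 31.5% of all genes). With poly(dA:dT) 2 rose and 4 fell (66.7%, against 21.4%). MXD4, which competes with MYC for MAX, rose by 1.24 with DMSO, and MXI1, another competitor, fell by 0.60. With poly(dA:dT) the repressors MXD3 and MNT fell by 1.35 and 0.89. Of 31 tested MYC targets from a separate list, 5 rose and 9 fell with DMSO (45.2%, against 31.5% of all genes), and 9 fell with poly(dA:dT) (29%, against 21.4%). After the correction 2 were higher and 9 lower with DMSO (35.5%, against 27.6%), and 1 higher and 8 lower with poly(dA:dT) (29%, against 27.1%).

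A further 131 genes of the same pathway, in 5 lists, gave the wider picture. With DMSO, 19 rose and 25 fell (33.6%), and with poly(dA:dT) 7 rose and 10 fell (13%), with medians of -0.04 and -0.07, close to the background shares given above in the first case and under them in the second. Among RNA polymerase I genes, the promoter-selectivity subunit TAF1D fell by 0.78 with DMSO, with 107 ± 8.23 TPM with siQ61K and 186 ± 20.5 TPM with siNC. POLR1D, shared with RNA polymerase III, rose by 0.61 with poly(dA:dT), and TCOF1 (treacle), a scaffold of rDNA transcription, fell by 0.61. Among 40S factors KRR1 fell by 0.95 with DMSO, with 28.2 ± 3.57 TPM with siQ61K and 55.3 ± 1.85 TPM with siNC, and the helicase DDX49 rose by 0.95 with DMSO and 0.78 with poly(dA:dT). Among 60S factors WDR18 rose by 1.08, and MDN1 and BRIX1 fell by 0.95 and 0.84 with DMSO. Among snoRNP factors RPAP3 fell by 0.73 and RUVBL2 rose by 0.67 with DMSO. The exosome subunit EXOSC8 fell by 0.94 with DMSO, with 41.7 ± 0.766 TPM with siQ61K and 81.3 ± 10.2 TPM with siNC (SD, n = 3 each throughout). After the correction, 14 of 130 pathway genes were higher and 13 lower with DMSO (20.8%, against 27.6% of all genes). With poly(dA:dT) 14 were likewise higher and 13 lower (20.8%, against 27.1%). Of the 44 called with DMSO in deposited TPM, 21 kept their call, against 2884 of 4632 over all genes. TAF1D, KRR1, WDR18, BRIX1, EXOSC8 and DDX49 were among the 21.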

How the data were processed

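RNA-seq was measured in 12 libraries, which the sample titles place in their groups. The authors deposited 1 table of TPM per gene symbol; Salmon 0.8.0 and hg19 are named in the submitters' processing notes, and the annotation is not given in the sources used here. Of 56227 entries, 984 shared 58 symbols and were left out. No column of the table was left unmatched to a sample. TPM gives no depth, so no counting interval is given. One leukocyte marker of the summed list is not reported here by itself.

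Genes below 1 TPM in more than 9 libraries were set aside, which kept 14722, and TPM was put on a log2 scale after 1 was added, which understates changes of low genes. In R 4.3.3, limma 3.58.1 fitted the 4 groups jointly, using a trend of variance with level; p-values were adjusted by Benjamini-Hochberg across every tested gene and called at 0.05. Standard errors are the model's. The fit was tested on simulated data. The correction for GC content and length subtracts from each library a lowess curve (span 0.3) over the longest transcript of each gene in GENCODE release 29, known for 14521 genes (98.63%) and all 34 members. That annotation and the RefSeq promoters (GRCh38.p14) are on another build than hg19, so no coordinate was taken from one for the other.

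Members and all gene lists were chosen with earlier results of these data known. Of each role, the members with the largest and the smallest knockdown fold change were given in every library; NRAS, the MYC network and, of other lists, up to 4 called genes per comparison with the largest change at a mean of at least 5 TPM could be named. Alternatives were pseudocounts of 0.1 and 5, a filter at a mean of 5 TPM or none, scaling by median of ratios, quantile normalization, no variance trend, the GC and length correction, a replicate block, a fit to only the groups compared, and leaving out each library or 2 libraries at once.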

Additional observations from a re-analysis of the deposited data

Results flagged for a closer look

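The response of 5 members to poly(dA:dT) differed between siQ61K and siNC cells by the interaction term in limma. The siQ61K response less the siNC response was 1.27 on the log2 scale for WDR12, -1.21 for RRS1, -0.79 for RRP9, -0.74 for UBTF and -0.70 for NOP16. For WDR12 the response was 0.72 under siQ61K and -0.55 under siNC, and for RRS1 it was -0.90 under siQ61K and 0.31 under siNC. After the GC and length correction none of the 5 was called, with adjusted p from 0.0668 for WDR12 to 0.328 for UBTF.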

How the results depend on the processing

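The member calls kept their direction under the alternatives, except RRP12 for poly(dA:dT) against DMSO under siQ61K, which came to 0.0235 after the GC and length correction, with and without a replicate block. The number of members called after knockdown with DMSO, 13, was 5 with no filter, 8 with no variance trend, 6 with the correction and a replicate block, and 2 to 14 without each library in turn. After knockdown with poly(dA:dT) it was 4 to 7 without each library. For poly(dA:dT) under siQ61K, 7 members became 4 with the correction, 3 with the correction and block, 0 without replicate 2 of siQ61K with poly(dA:dT) and replicate 3 of siQ61K with DMSO together, and 4 to 10 without each library. The 5 members of the interaction became 2 with no filter, 8 with quantile normalization, 3 with no variance trend, 3 with the block, 0 with the correction, 0 with both, 1 without those 2 libraries, and 2 to 11 without each library. The correction, the correction with block and the omission of those 2 libraries gave 1263, 1074 and 137 genes for poly(dA:dT) under siQ61K, and 298, 210 and 550 for the interaction; no filter gave 2328 and 1026. Under siNC, 18 genes became 29, 28 with the block as well, and 34 in a fit to only the groups compared. Without each library, the genes called were 3045 to 4998 and 2108 to 3750 for knockdown with DMSO and with poly(dA:dT), 7 to 37 and 1628 to 4608 for poly(dA:dT) under siNC and under siQ61K, and 980 to 3886 for the interaction. The member median of -0.04 with DMSO was -0.0926 to 0.0673 without each library. That of -0.05 with poly(dA:dT) was 0.0269 with median-of-ratios scaling and -0.132 to 0.0174 without each library. Under siNC, -0.10 became -0.0069 with the correction, with or without the block. Under siQ61K, -0.09 became 0.0677 with median-of-ratios scaling, 0.0208 with quantile normalization, 0.0342 with the correction, 0.0342 with the block as well, and 0.0194 without the 2 libraries. For the interaction, -0.07 became 0.0286, 0.0175 and 0.0608 with median-of-ratios scaling, quantile normalization and those 2 libraries left out, and -0.122 to 0.0207 without each library. Only the settings themselves were changed here, and the cause of each shift was not tested.

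Replicate numbers did not pair the libraries in every group. Residuals of same-numbered libraries correlated at -0.26 to 0.233, with 3 of 18 pairs over 0.1. Pairs without a siNC DMSO library were all positive, at 0.0401 to 0.233. Pairs with a siNC DMSO library were at -0.26 to 0.037. Of 12 libraries, 4 correlated best with their own number. Such matches also arise where numbers carry no pairing, so none is read from this count. The labels do not say whether libraries of the same number were handled together. A replicate block called 9, 5, 0, 6 and 3 members in the 5 comparisons and 4436, 2957, 22, 3433 and 2243 genes, in the order of knockdown with DMSO, knockdown with poly(dA:dT), poly(dA:dT) under siNC, under siQ61K, and the interaction. The unknown depth limits what low members such as POLR1C and POLR1A can show.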

Other observations

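Long noncoding genes can carry snoRNAs in their introns. Of 11 tested snoRNA host genes, 2 rose and 5 fell after knockdown with DMSO (63.6%, against 31.5% of all genes called), but once corrected for GC content and length 2 were called, both lower (18.2%, against 27.6%). After knockdown with poly(dA:dT) 4 rose and 1 fell (45.5%, against 21.4%), and with the correction 6 were higher and 1 lower (63.6%, against 27.1%). SNHG16 fell in both, to 80.6 ± 13.98 TPM with siQ61K, against 169 ± 19.8 TPM with siNC, both with DMSO (log2 fold change -1.06, adjusted p = 0.000152), and by 0.58 with poly(dA:dT) (adjusted p = 0.00901). SNHG7 rose in both, by 0.83 and 1.09, with 72.7 ± 0.987 TPM with siQ61K and 34.2 ± 8.27 TPM with siNC in cells given poly(dA:dT). SNHG5 had 1441 ± 88.6 TPM with siQ61K and 2248 ± 241 TPM with siNC, both with DMSO (SD, n = 3 each throughout; log2 fold change -0.64, adjusted p = 0.00223). After the GC and length correction SNHG16 was called in both comparisons, SNHG5 with DMSO, and SNHG7 with poly(dA:dT) alone.

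Free RPL5 and RPL11 bind MDM2, the ubiquitin ligase of p53, when ribosome assembly stalls. MDM2 mRNA rose after knockdown with poly(dA:dT), to 146 ± 26.9 TPM with siQ61K, against 87.96 ± 9.36 TPM with siNC (log2 fold change 0.71, SE 0.14, adjusted p = 0.00393), and with DMSO it was not called (-0.14, adjusted p = 0.494). RPL11 rose by 0.51 with DMSO (adjusted p = 0.0166), where RPL5 stood at -0.18 and was not called (adjusted p = 0.225). With poly(dA:dT) RPL5 rose by 0.39 (adjusted p = 0.0193), and RPL11 stood at -0.20 and was not called (adjusted p = 0.352). The log2 fold changes of the pair thus had opposite signs in each comparison, except that RPL5 was called higher with DMSO as well, at 0.26, once corrected. CDKN1A, a p53 target, rose by 0.29 with DMSO (adjusted p = 0.0346) and fell by 0.33 with poly(dA:dT) (adjusted p = 0.0282), and neither call held after the GC and length correction.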
